A study of Mus musculus with 6 samples.

Results

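The syndecans and glypicans are the main families of proteins that carry heparan sulfate chains on the cell surface, and their 10 genes in the mouse were followed here in lung RNA: the 4 syndecans Sdc1, Sdc2, Sdc3 and Sdc4 and the 6 glypicans Gpc1, Gpc2, Gpc3, Gpc4, Gpc5 and Gpc6. The rule is membership of either family and uses no measured value. Probes were assigned to them through the accession each probe carries, which gave 16 of 56605 probes and 10 of 22911 genes with a matched probe. Of these, 7 genes had 1 probe and 3 genes (Sdc1, Gpc4 and Gpc5) had 3 probes.

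A syndecan crosses the plasma membrane and carries its heparan sulfate far out from the cell, on an ectodomain that proteases can cut off, whereas a glypican is held in the outer leaflet by a lipid anchor and carries its chains close to the membrane. On lung capillaries such chains form part of the glycocalyx, the sugar layer that lines the vessel and holds antithrombin, growth factors and chemokines, and shed syndecan-1 in blood is widely used as a sign that this layer has been damaged. An array of this kind measures the transcripts that encode the core proteins and is silent on the chains, on the protein at the surface and on shedding.

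Lungs came from male C57BL6 mice aged 10 weeks, all of which had been starved for 16 h and given LPS, a bacterial endotoxin, into the peritoneum at 20 mg/kg. Treated mice then received recombinant human thrombomodulin (rhTM, a soluble form of an endothelial anticoagulant receptor) at 30 mg/kg, and control mice received saline, 3 h and 24 h after the endotoxin. RNA of the whole lung was taken at 30 h from 3 saline-treated and 3 rhTM-treated mice and hybridised to 1-colour Agilent arrays, 1 array per mouse. The question was which lung transcripts differed with rhTM once the endotoxin had acted, and since no lung without LPS was used here, no value describes the effect of LPS itself.

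Levels are given as the processed signal of a probe divided by the 75th percentile of its own array, which lay between 675 and 850 signal units. Probes differ in brightness for reasons other than abundance, so levels were compared between arrays and not between probes. A summed marker level adds different probes, so the brightest weigh most in it, and sums too were compared only between arrays. On the 6 arrays 36002 to 40503 probes were well above background. Markers fitted the tissue label: the 9 endothelial, the 7 AT2 cell, the 6 measured AT1 cell and the 4 club cell markers were well above background on every array. Deposited values of 2 arrays stood in conflict. In the series table, the columns of saline replicate 1 and rhTM replicate 2 held each other's scanner values, with 99.9% of probes equal to within 0.1%, and neither the labels nor the methods settle which is right. The scanner output was followed, and the values by the table and without both arrays are given beside those of each tested member. The arrays came from 2 slides, the second with saline replicate 1 and rhTM replicate 3 by the scanner output, or with rhTM replicates 2 and 3 alone if the table is right. The spike-in slope was 0.826 on the array scanned as saline replicate 1 and 1.07 to 1.09 on the others.

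None of the 9 syndecan and glypican genes that could be tested passed the test for a difference with rhTM, which does not show that their levels were equal, and the interval given with each bounds the change. Only Gpc6 was not tested, because its probe was well above background on no more than 1 array of either group. Differences in mean log2 level (rhTM minus saline) ran from -0.22 for Sdc3 to 0.21 for Sdc1, with 3 genes higher (Sdc1, Sdc4, Gpc4) and 6 lower, against 50.7% higher and 49.3% lower among the 16370 genes tested. By limma with Benjamini-Hochberg adjustment over those genes, every adjusted p of the 9 was 0.9999, and 0 of 16370 genes (0%) passed at 0.05. At an unadjusted p under 0.05 there were 0 of the 9 members and 1.87% of all genes. The groups did not overlap for Gpc5 alone, beside 5.52% of all genes, and since its probe was tested only because it was above background on the saline arrays, nothing is read from that count. The median difference was -0.17 over the 9 members, -0.093 over the 8 that were above background on all 6 arrays (3 higher, 5 lower), and 0.0026 over all genes tested.

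By the series table, 1 of 8 members was higher and 7 were lower, with 46% of 16320 genes higher and 54% lower, and adjusted p-values in limma ran from 0.353 to 0.980. Again 0 members and 0% of genes passed the adjustment, while 1 member and 14% of genes had an unadjusted p under 0.05. That member was Gpc3, which was also the 1 of 8 members whose groups did not overlap there, against 21.7% of all genes. Without both exchanged arrays, 1 of 9 members was higher and 8 were lower (48.4% and 51.6% of all genes), and 0 members passed. The 8 include Gpc5, whose probe was tested only through the saline arrays. In bulk lung, fewer cells of a type and less RNA per cell cannot be told apart. With 3 mice per group, limma sets a difference in means against a spread estimated from these samples and over all genes.

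**Figure D1:**
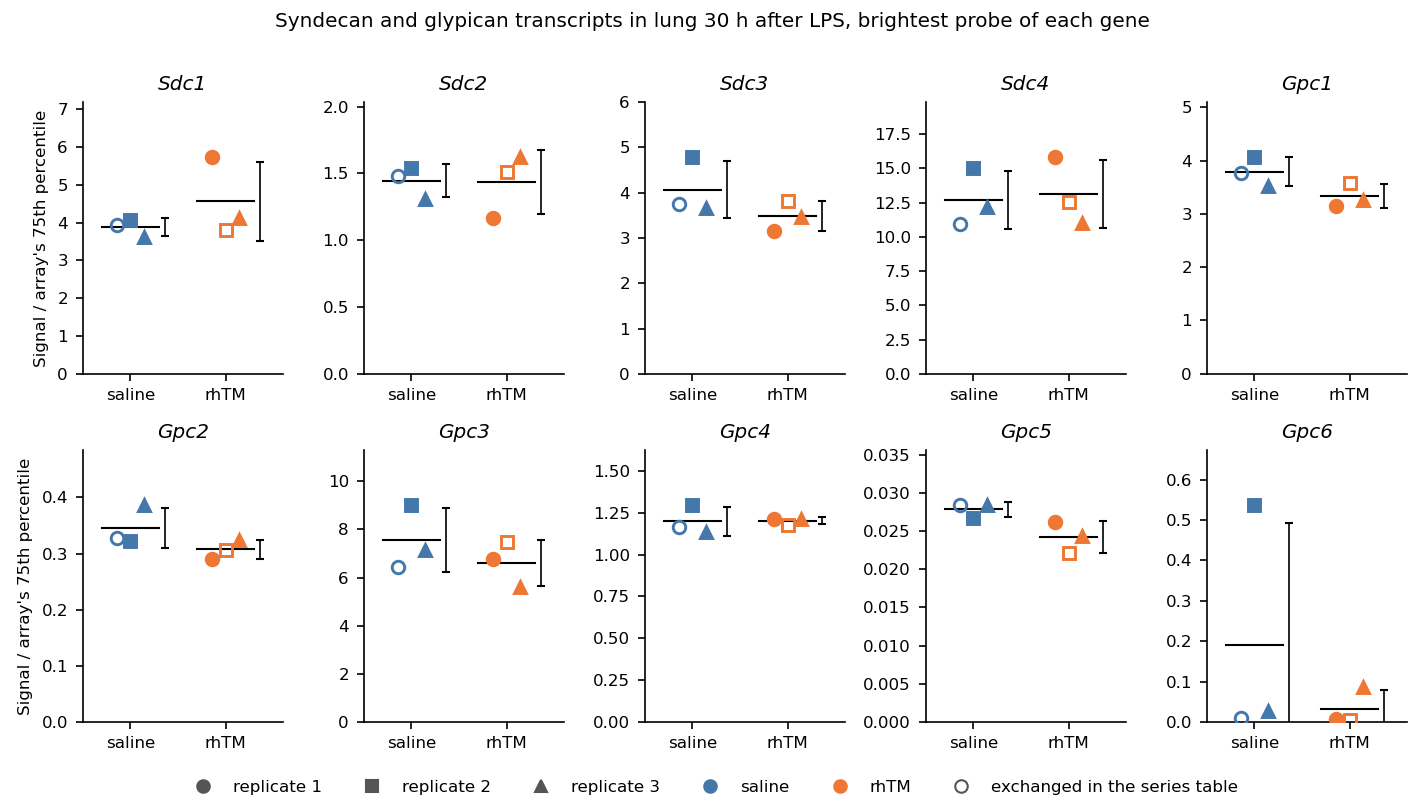
Level of each syndecan and glypican on each array, as signal over the array's 75th percentile (linear axis from 0, brightest probe of each gene), for 3 saline-treated (blue) and 3 rhTM-treated (orange) mice. Horizontal lines are group means, bars to their right are ± 1 SD cut off at 0, shapes are replicates and open symbols are the 2 arrays exchanged in the series table; the groups overlap in every panel except Gpc5.

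Syndecan-1 is the epithelial and plasma cell syndecan and the one most often measured as shed ectodomain. Its brightest probe read 3.94, 4.08 and 3.63 times the 75th percentile in saline replicates 1, 2 and 3, and 5.75, 3.81 and 4.12 in rhTM replicates 1, 2 and 3. A single rhTM-treated mouse, replicate 1, stood above the other 5, which lay within the same narrow band. The mean was 3.88 ± 0.232 in the saline group and 4.56 ± 1.04 in the rhTM group (SD, n = 3 each; exact permutation test, two-sided, p = 0.4, where 0.1 is the smallest p this design allows). On the log2 scale the difference was 0.21, with a 95% interval in limma from -0.21 to 0.63 that corresponds to a change of between -13.7% and 55.3%. It was 0.34 without both exchanged arrays and 0.032 without rhTM replicate 1.

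The other two Sdc1 probes were also well above background on every array. The second read 2.36, 2.79 and 2.43 in the saline group and 3.78, 2.32 and 2.61 in the rhTM group, and followed the brightest probe closely over the 6 arrays (r = 0.96). Its difference was 0.17. The third probe, at 0.0866 to 0.146, followed the brightest one less closely (r = 0.54) and had the opposite sign, with a difference of -0.14. By the table this probe was 0.36 higher with rhTM, so that the sign of the Sdc1 probes differed by the scanner output and not by the table.

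By the table the brightest Sdc1 probe differed by 0.24. Once the slide entered as a block, it gave 0.58 (95% interval 0.29 to 0.88; limma, unadjusted p = 0.00307, adjusted p = 0.0588, within 0.0588 to 0.999985 over the alternatives for Sdc1), while 432 genes (2.65%) but 0 members passed 0.05. In that fit rhTM replicate 1 alone is set against the saline arrays, because both other rhTM arrays fill slide 2. Within slides, the scanner output gave 0.28 on slide 1 and 0.067 on slide 2. Neutrophil markers, 8 of 8 above background on every array, had their highest sum in rhTM replicate 1, at 1196. It was 919 to 1080 in the saline group and 936 and 1064 in the other rhTM arrays. Retnlg, Csf3r, Ngp and Camp were each highest in rhTM replicate 1, whereas S100a8, S100a9, Cxcr2 and Ltf were highest on other arrays. Of the 7 plasma cell markers, 6 were above background on every array and Tnfrsf17 on none. Their sum lay at 9.18 to 11.3 in the saline group and 9.63 to 13.0 in the rhTM group, with rhTM replicate 1 at 10.3. Txndc5 made up most of it, at 10.0 of 11.3 in saline replicate 1 and 8.48 of 10.3 in rhTM replicate 1. Each of the 6 was highest on an array other than rhTM replicate 1. The 6 markers of general epithelium summed to 73.2 to 93.6 with saline and to 66.7 to 83.8 with rhTM, with rhTM replicate 1 at 83.8. Among them Cdh1 and Cldn4 were highest in rhTM replicate 1 (8.59 and 0.0514). Krt8, Krt18 and Krt19, the brightest 3, were highest in saline replicate 2, and Epcam in rhTM replicate 3. Ciliated cell markers, 5 of 5 above background on every array, had their highest sum in rhTM replicate 1, at 11.4 against 5.78 to 7.07 with saline and 4.07 and 8.71 in the other rhTM arrays. The part of any of these cells in the Sdc1 values was not tested.

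Syndecan-4, which sits at focal adhesions and is inducible by inflammatory signals, read 10.9, 15.1 and 12.2 in the saline group and 15.9, 12.6 and 11.0 in the rhTM group. Both groups covered nearly the same span. The difference was 0.044 (limma, 95% interval -0.41 to 0.49; exact permutation test, p = 0.7), and it was -0.092 by the table, -0.037 without both exchanged arrays and -0.10 without rhTM replicate 1. Within slides 1 and 2 it was 0.061 and 0.0080. Replicate 1 of the rhTM group was again the highest array.

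Syndecan-2, the syndecan of fibroblasts and endothelium, read 1.48, 1.54 and 1.31 with saline and 1.17, 1.51 and 1.63 with rhTM. Here rhTM replicate 1 was the lowest and rhTM replicate 3 the highest array, with the saline mice in between. The difference was -0.020 (95% interval -0.41 to 0.37), or between -24.5% and 28.8%. It was -0.038 by the table, -0.044 without both exchanged arrays and 0.12 without rhTM replicate 1, and by the scanner output -0.097 within slide 1 and 0.13 within slide 2.

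Syndecan-3, best known from neurons, read 3.75, 4.80 and 3.66 with saline and 3.15, 3.81 and 3.47 with rhTM. Saline replicate 2 was the highest array and 2 of the 3 rhTM arrays were the lowest, but rhTM replicate 2 lay above 2 saline arrays. The difference was -0.22 (95% interval -0.59 to 0.15; exact permutation test, p = 0.3), -0.24 by the table and -0.34 without both exchanged arrays. Leaving out saline replicate 2 brought it to -0.094, and within slides 1 and 2 it was -0.27 and -0.11.

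**Figure D2:**
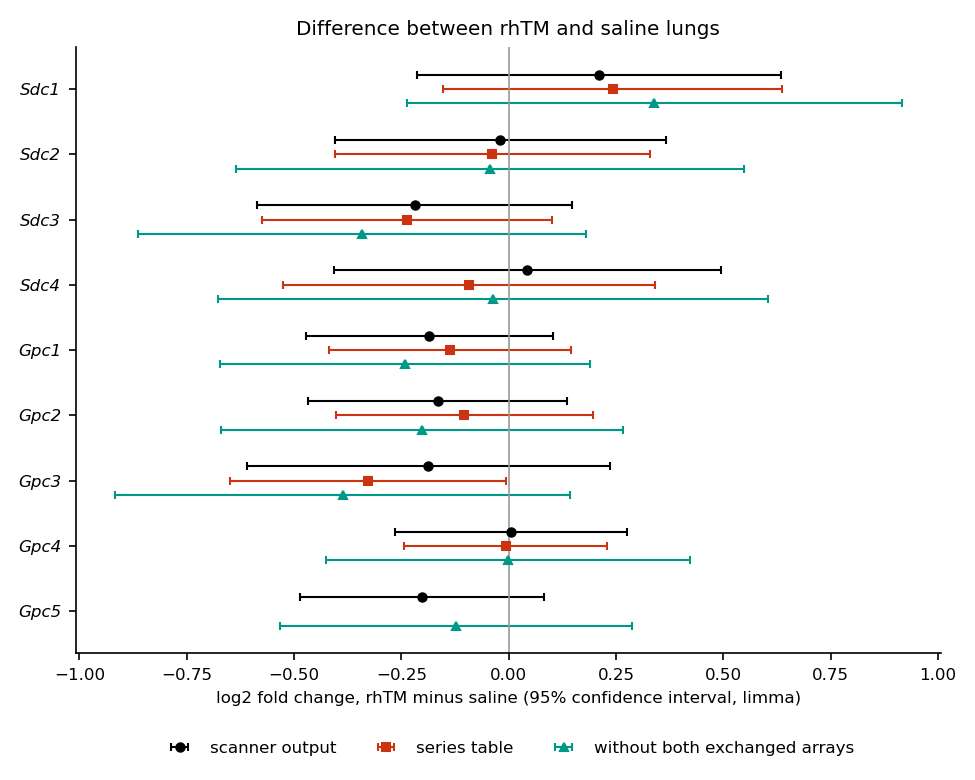
Difference in mean log2 level between rhTM-treated and saline-treated lungs for each tested gene, with 95% intervals from limma, by the scanner output (black circles), by the series table (red squares) and without both exchanged arrays (green triangles). Intervals span 0 in every case except Gpc3 by the table, and Gpc5 has no table value because its probe was not tested there.

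Glypican-1, the glypican found on endothelium and in many adult tissues, read 3.77, 4.08 and 3.53 with saline and 3.16, 3.58 and 3.27 with rhTM. The groups nearly separated: only rhTM replicate 2 reached into the saline range. Means were 3.79 ± 0.273 and 3.33 ± 0.221 (SD, n = 3 each; exact permutation test, p = 0.2), a difference of -0.18 with a 95% interval from -0.47 to 0.10. It was -0.14 by the table, -0.24 without both exchanged arrays, and -0.17 and -0.21 within slides 1 and 2 of the scanner output.

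Glypican-2, a glypican of the developing nervous system, read 0.328, 0.323 and 0.387 with saline and 0.291, 0.307 and 0.325 with rhTM. Saline replicate 3 was the highest array and 2 rhTM arrays were the lowest. The difference was -0.17 (95% interval -0.47 to 0.14; exact permutation test, p = 0.2), -0.10 by the table and -0.20 without both exchanged arrays. Without saline replicate 3 it was -0.082, and -0.0041 by the table. It was -0.24 within slide 1 and -0.013 within slide 2 of the scanner output.

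Glypican-3, which restrains Hedgehog signalling and tissue growth in development, spanned the widest range of the tested members on the 6 arrays (0.69 on the log2 scale). It read 6.46, 9.03 and 7.16 with saline and 6.76, 7.48 and 5.60 with rhTM. The highest array was saline replicate 2 and the lowest rhTM replicate 3, and the other four were interleaved. Means were 7.55 ± 1.33 and 6.61 ± 0.947 (SD, n = 3 each; exact permutation test, p = 0.5), a difference of -0.19 with a 95% interval from -0.61 to 0.24, and of -0.18 and -0.21 within slides 1 and 2.

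For Gpc3 the exchange of arrays decided whether the groups overlapped. By the table its saline values were 7.48, 9.03 and 7.16 and its rhTM values 6.76, 6.46 and 5.60, so that every rhTM array lay below every saline array, as held for 12% of all genes by the table. The difference was then -0.33 (95% interval -0.65 to -0.0065; limma, unadjusted p = 0.0467, adjusted p = 0.353, within 0.161 to 0.999985 over the alternatives for Gpc3; exact permutation test, p = 0.1, the smallest possible). With the slide as a block the table's value was -0.22 (95% interval -0.65 to 0.21; limma, adjusted p = 0.447), again a fit that sets rhTM replicate 1 alone against the saline arrays. Without both exchanged arrays it was -0.39 (95% interval -0.92 to 0.14). Leaving out saline replicate 2 from the scanner output brought it to -0.051, and leaving out rhTM replicate 3 to -0.072. The lowest adjusted p, 0.161 in limma, came by the table without rhTM replicate 1, where the groups lie on different slides.

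Markers of the mesothelium, the cell layer that covers the lung, moved with Gpc3 over the arrays. The 5 markers Msln, Upk3b, Wt1, Gpm6a and Lrrn4 were above background on all 6 arrays. Their summed level was 30.5, 47.2 and 33.6 in saline replicates 1, 2 and 3 and 23.8, 33.8 and 21.0 in rhTM replicates 1, 2 and 3, so that saline replicate 2 was the highest and rhTM replicate 3 the lowest array in both measures. All 5 had a lower mean with rhTM, as did 49.3% of all genes, with differences from -0.88 (Upk3b) to -0.48 (Msln). Their groups overlapped by the scanner output. By the table every rhTM array lay below for 4 of the 5, as for 12% of all genes. In either version of the data 0 of the 5 passed the adjustment in limma. The same arrays were the extremes for the summed AT1 cell markers (318 in saline replicate 2 and 249.6 in rhTM replicate 3). They were so too for the sum of general epithelium (93.6 and 66.7). Single markers of these lists differed. Pdpn and Krt8 had both extremes, but Ager was lowest and Hopx and Aqp5 highest in rhTM replicate 1 (133, 75.1 and 43.8). Akap5 was highest in rhTM replicate 2 and Epcam in rhTM replicate 3 (19.2 and 0.955). Summed fibroblast markers ran the other way from Gpc3, with 119 in saline replicate 2 and their highest sum, 177, in rhTM replicate 3. The sum for pericytes and smooth muscle was likewise highest in rhTM replicate 3 (33.5, against 30.8 in saline replicate 2). The part of any of these cells in the Gpc3 values was not tested.

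**Figure D3:**
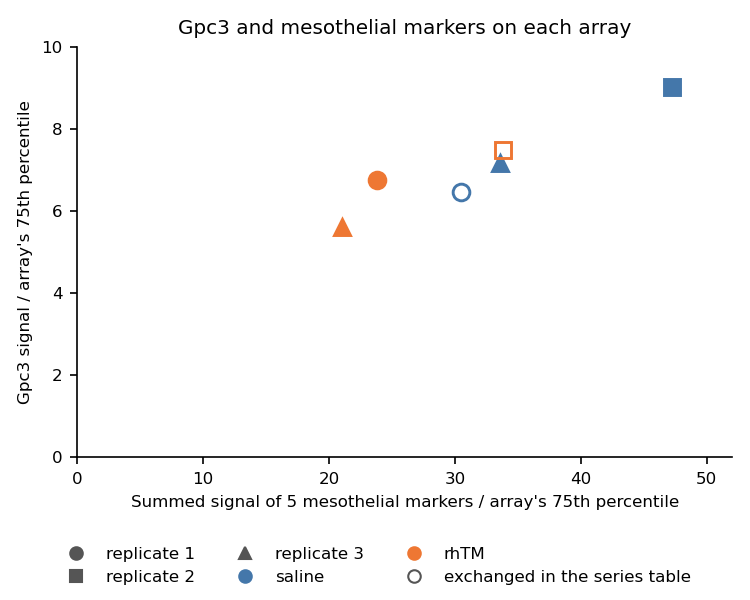
Gpc3 level against the summed level of the 5 mesothelial markers on each of the 6 arrays, both as signal over the array's 75th percentile on linear axes from 0, with saline in blue, rhTM in orange and the 2 exchanged arrays open. Saline replicate 2 is at the upper right (47.2 and 9.03) and rhTM replicate 3 at the lower left (21.0 and 5.60).

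Glypican-4, a modulator of growth factor signalling that lies adjacent to Gpc3 on the X chromosome with 0 protein-coding genes between them in the mouse annotation, had the smallest range over the 6 arrays of the tested members (0.19 on the log2 scale). Its brightest probe read 1.16, 1.30 and 1.14 with saline and 1.21, 1.18 and 1.21 with rhTM, and the highest array was 1.14 times the lowest. The difference was 0.0051 (95% interval -0.26 to 0.27), or -16.8% to 21.0%, which was the narrowest interval of the 9, and it was -0.0072 by the table and -0.0016 without both exchanged arrays. Within slides 1 and 2 it was -0.024 and 0.063.

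The second Gpc4 probe, above background on every array, read 0.481, 0.427 and 0.307 with saline and 0.326, 0.420 and 0.457 with rhTM, a difference of -0.0053. It was 0.13 by the table. The third, above background on 3 of 6 arrays and so not used for the gene, read 0.0140 to 0.0296 and varied more over the arrays than the brightest probe (ranges of 1.08 and 0.19 on the log2 scale). Its difference was -0.51 by the scanner output, -0.54 by the table and -0.79 without both exchanged arrays (95% interval -1.36 to -0.22; limma over all probes with no filter, unadjusted p = 0.0173, adjusted p = 0.725). In that last fit only saline replicate 2 held the probe well above background and neither rhTM array did, so the size of the difference is not read. The 3 probes shared little of their array-to-array variation (r from -0.15 to 0.29, n = 6).

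Glypican-5 and glypican-6, known from kidney, brain and connective tissue, also lie side by side, on chromosome 14, and neither was above background on all 6 arrays. The brightest Gpc5 probe read 0.0284, 0.0267 and 0.0285 with saline, where all 3 arrays held it well above background, and 0.0263, 0.0221 and 0.0244 with rhTM, where none did. Every rhTM value lay below every saline value, as it did for 2.57% of all genes. The probe was tested only through the saline arrays, however, so a lower rhTM group was built into its selection. Its measured difference was -0.20 (95% interval -0.49 to 0.082), or -0.12 (-0.53 to 0.29) without both exchanged arrays, and neither value is read as a difference between the groups.

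By the table, the same Gpc5 probe was above background on 2 saline arrays and 1 rhTM array, its groups overlapped, it was not tested and its measured difference was 0.039, the opposite sign. Of the other two Gpc5 probes, one was above background on rhTM replicate 1 alone, at 0.0651, and the other on no array.

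The Gpc6 probe read 0.0087, 0.538 and 0.0281 with saline and 0.0060, 0.0049 and 0.0870 with rhTM. It was well above background on saline replicate 2 and rhTM replicate 3 only, and not on the other four arrays. Each member probe had 1 spot on an array, so a single bright spot could not be set against a second one.

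**Figure D4:**
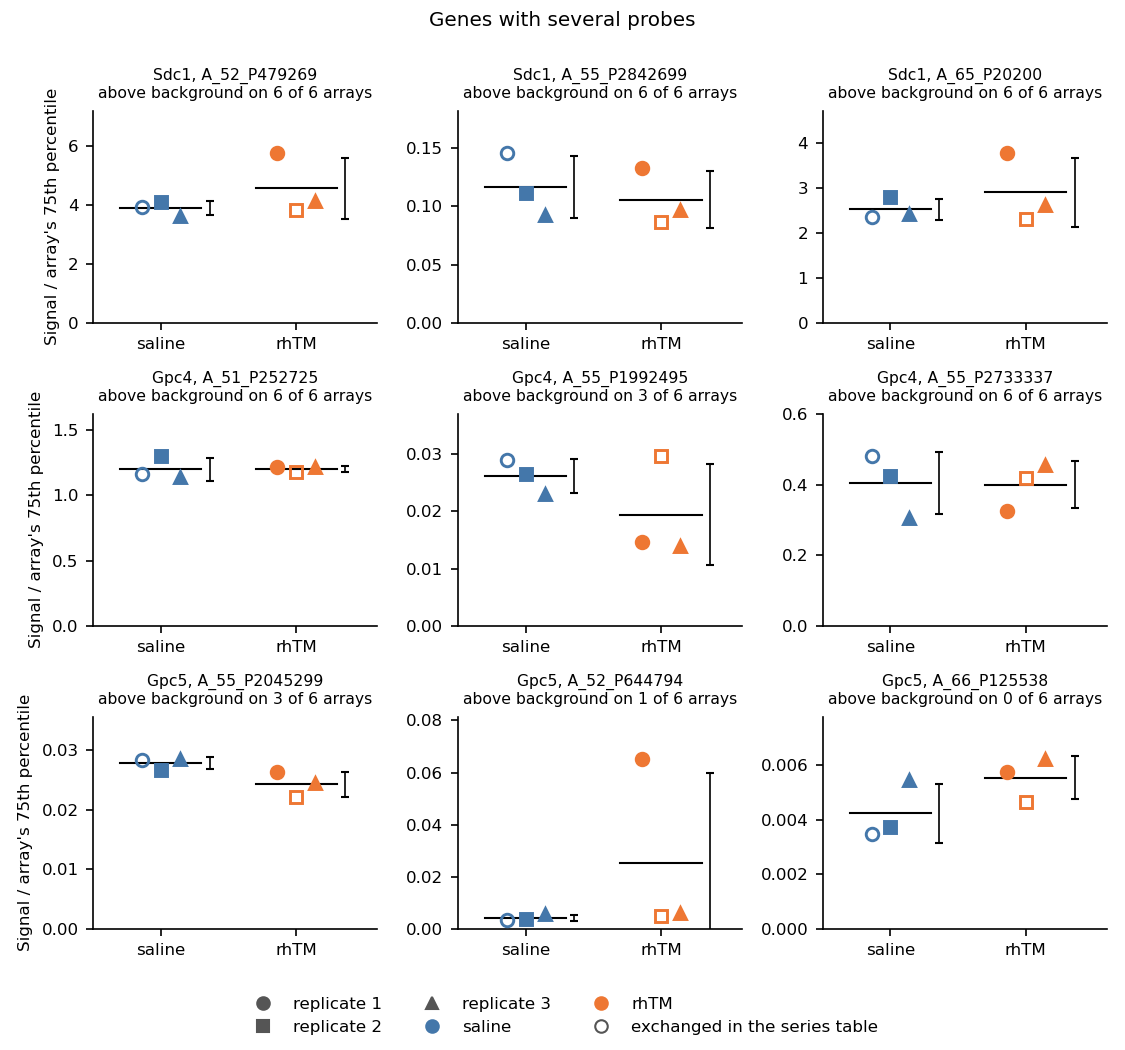
All 9 probes of the 3 genes with several probes (Sdc1, Gpc4 and Gpc5; rows), as signal over the array's 75th percentile on linear axes from 0, with colours, symbols, means and ± 1 SD bars (cut off at 0) for 3 saline and 3 rhTM arrays. Each panel states on how many of 6 arrays the probe was well above background; the Sdc1 probes in the left and right panels share their high value in rhTM replicate 1.

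Across the arrays, 1 rhTM-treated mouse often set the extreme value. Replicate 1 of the rhTM group was the highest array for Sdc1 and Sdc4 and the lowest for Sdc2, Sdc3, Gpc1 and Gpc2. Saline replicate 2 was the highest for Sdc3, Gpc1, Gpc3 and Gpc4. Of the 36 pairs of tested members, Sdc3 and Gpc1 ran most closely together (r = 0.94 over 6 arrays), followed by Sdc3 and Gpc3 (r = 0.78), while Sdc1 and Gpc2 ran most nearly opposite (r = -0.70). These values describe 6 arrays from a pair of groups and carry no test.

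The nearest 3 genes in pattern to Sdc1 and to Gpc3 among the 16370 were taken by Pearson's r of log2 values over the 6 arrays. For Sdc1 these were Srcap (r = 0.997), Gpat3 (0.995) and Sbno2 (0.993), each highest in rhTM replicate 1, and 109 genes had an r over 0.95. For Gpc3 they were H2-Ke6 (0.998), Set (0.994) and Exosc4 (0.993), each highest in saline replicate 2, and 155 genes had an r over 0.95.

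The genes that build, trim, shed and bind the heparan sulfate core proteins were taken as 5 lists with 62 genes, of which 55 were tested, and 0 passed the adjustment in limma in either version of the data. Chain assembly starts when the xylosyltransferases Xylt1 and Xylt2 place the first sugar on the core protein and proceeds through the exostosin polymerases. Of its 12 genes 4 were higher and 8 lower with rhTM (median -0.077), or 5 and 7 by the table. Xylt1 differed by -0.099 and Xylt2 by -0.032, and among the polymerases Ext1 differed by -0.10, Ext2 by 0.00050 and Extl3, which starts the chain, by 0.071. Ext2 was 0.68 higher by the table, with every rhTM array above, as in 9.68% of all genes there (limma, adjusted p = 0.314). Extl1, named after its values were seen, was lower on every rhTM array there (-0.27), as were 12% of all genes. By the scanner output every rhTM array was above for 1 gene of this list, Extl2, named likewise (0.15, or 0.031 with overlap by the table), as for 2.95% of all genes.

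Chain modification was measured for 12 of 18 genes, of which 8 were higher and 4 lower (median 0.063), or 6 and 6 by the table. The deacetylase-sulfotransferases Ndst1 and Ndst2 differed by 0.071 and 0.039. Hs2st1, which sulfates the uronic acid, differed by 0.099 and Hs6st1, which sulfates the glucosamine, by 0.19, with 8.35, 7.01 and 7.07 in the saline group and 9.31, 7.18 and 9.15 in the rhTM group. The extracellular sulfatases Sulf1 and Sulf2, which remove such sulfates, differed by -0.25 and -0.052. By the table Hs6st1 was higher and Sulf1 lower on every rhTM array, at 0.33 and -0.47 (limma, adjusted p = 0.314 for both), beside 9.68% and 12% of all genes. Hs6st2, named after its values were seen, had a difference of -0.16, whereas the table gave 0.81 with every rhTM array above. By the scanner output 1 gene of this list had every rhTM array above, Hs3st3b1, named likewise, with 0.35, or 0.035 with overlap by the table. The share of all genes was 2.95%.

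Among the 13 shedding and cleavage genes, 7 were higher and 6 lower (median 0.059), or 9 and 4 by the table, and in 2 of them no saline array reached the rhTM arrays, as in 2.95% of all genes. One was Timp3, the matrix-bound inhibitor of metalloproteinases and ADAM sheddases, which read 62.3, 60.1 and 56.6 with saline and 64.4, 63.8 and 75.1 with rhTM, a difference of 0.18 that was 0.16, with overlap, by the table. The other was Pcsk5, a proprotein convertase named here after its values were seen, with a difference of 0.59 that was 0.19, also with overlap, by the table.

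Adam10 and Adam17, sheddases that cut syndecan ectodomains, differed by 0.13 and -0.044, and the metalloproteinases Mmp9 and Mmp14 by -0.10 and -0.039. By the table Adam17 was -0.29 with every rhTM array below (limma, adjusted p = 0.337). So was Pcsk7 (-0.33), while Pcsk6 (0.63) was above on every rhTM array, both convertases named after their values were seen. Of all genes by the table, 12% lay below and 9.68% above in this way, and 21.7% did not overlap. Mmp2 and Mmp7, named likewise, were 0.20 and 0.15, or 0.0061 and 0.73 by the table, where their groups overlapped. Heparanase (Hpse), which cuts the chains, differed by -0.039 and the convertase Furin, which processes glypicans, by 0.059. Notum, a hydrolase first described as releasing glypicans from their anchor, read 37.0, 10.3 and 6.56 with saline and 7.21, 6.96 and 38.4 with rhTM. Its 2 high arrays were those that the scanner output places on slide 2, and its difference was -0.12, or 1.48 by the table (limma, adjusted p = 0.368), where both of these arrays are rhTM arrays.

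Of 9 cytoplasmic partners of the syndecans, 6 were higher and 3 lower (median 0.023), or 3 and 6 by the table. Syntenin (Sdcbp), the adaptor that binds the syndecan tail and routes it through endosomes, read 6.03, 6.20 and 6.20 with saline and 8.27, 6.37 and 6.91 with rhTM. Every rhTM array was above the saline arrays, by a narrow margin for replicate 2, as for 2.95% of all genes, and the difference was 0.22 (limma, adjusted p = 0.9999), or 0.16 with overlap by the table. The scaffold Cask differed by -0.058, and by the table it was -0.27 with every rhTM array below, as for 12% of all genes there (limma, adjusted p = 0.327). A partner outside these named genes, Sdcbp2, was singled out after its values were seen: it passed when the slide was a block in the table's fit (limma, adjusted p = 0.0436, against 0.720 without the block and 0.9999 by the scanner output), where rhTM replicate 1 at 4.85 is set alone against the saline arrays.

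Other heparan sulfate core proteins, which include basement membrane proteins, membrane receptors, testicans and the granule proteoglycan serglycin, were tested for 9 of 10 genes, with 5 higher and 4 lower (median 0.053), the same counts as by the table. Perlecan (Hspg2) differed by 0.066, agrin (Agrn) by 0.053 and collagen XVIII (Col18a1) by -0.19. The hyaluronan receptor Cd44, which can carry heparan sulfate on a spliced exon, differed by 0.18, and was 0.47 higher by the table with every rhTM array above, as for 9.68% of all genes there (limma, adjusted p = 0.314). Serglycin (Srgn) differed by 0.22 and was highest in rhTM replicate 1, at 69.0 against 36.8 to 46.1 on the other arrays.

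**Figure D5:**
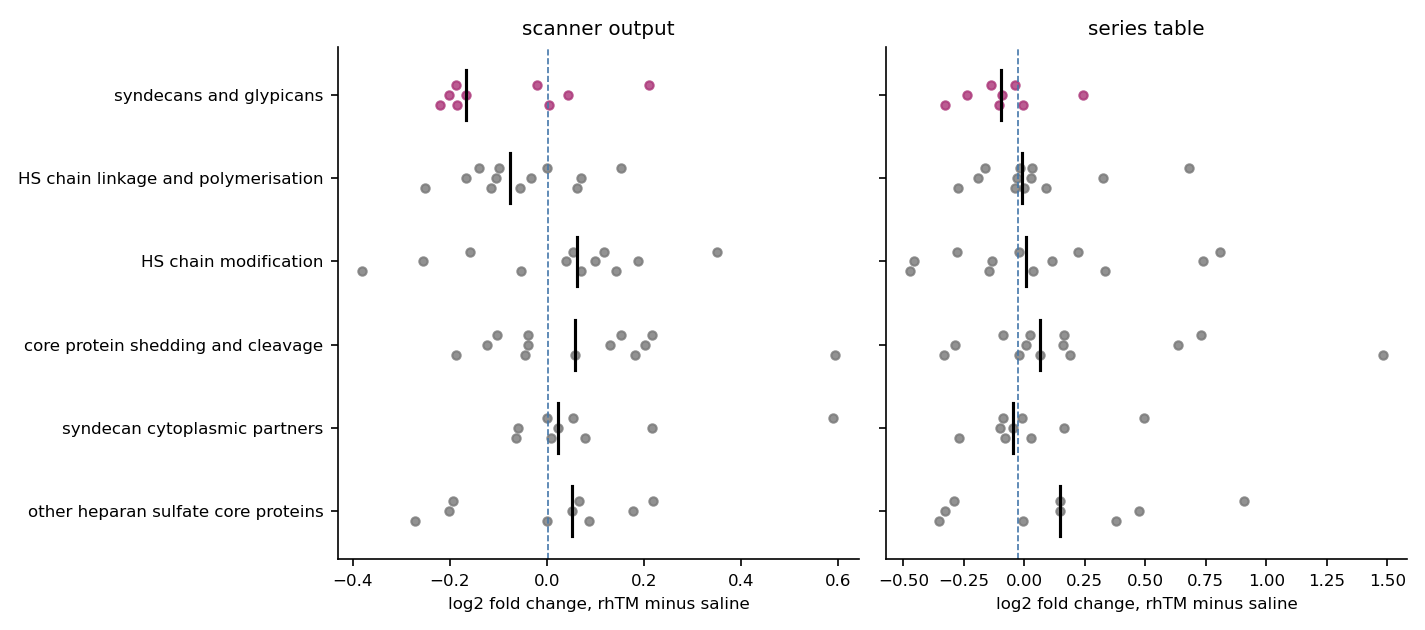
Difference in mean log2 level (rhTM minus saline) of each tested gene (points) in the syndecans and glypicans (purple) and in 5 lists of heparan sulfate (HS) genes (grey), by the scanner output (left) and by the series table (right, on a wider axis). Thick bars are list medians and the dashed line is the median of all genes tested; the medians of the 9 members are -0.17 and, with 8 members, -0.098 by the table.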

How the data were processed

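RNA of 6 lungs, 3 per group, was hybridised to 1-colour Agilent arrays. Scanner files deposited by the authors hold a processed signal, a background-corrected intensity on a linear scale, not scaled between arrays (Feature Extraction 10.7.3.1 per the file headers, 9.1 per the labels). They also deposited a series table of the same intensity values, in which saline replicate 1 and rhTM replicate 2 are exchanged. For RNA extraction the labels name an RNeasy kit and the methods a simplyRNA kit.

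Samples were grouped by their labels. Control spots and 398 of 56605 probes flagged as outliers were left out, and each array's own 75th percentile was taken off on the log2 scale. Accessions of 32994 probes matched 22911 genes of a RefSeq table (GRCm38.p6). The array annotation uses another build, so no coordinates are given, and probe and protein sequences were not used here. Probes were kept if all 3 arrays of either group held them well above background, and the probe with the highest mean signal stood for its gene. Groups were compared with limma 3.58.1 (lmFit, eBayes) in R 4.3.3, with Benjamini-Hochberg adjustment over all genes, a threshold of 0.05 and no covariate. Each member was compared by an exact permutation test as well, two-sided.

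The members and gene lists were chosen with earlier results of these data known. Named genes were the 10 members with every probe, the list genes given in the results except those said to be named after their values were seen, any list gene that passed the adjustment, and the 3 nearest in pattern to Sdc1 and to the tested member with the widest range. Marker lists numbered 14. Alternatives were normexp background correction (offset 50, on median in place of the planned mean spot signals), quantile normalization, another percentile, the series table, no filter or a stricter filter, slide and replicate blocks, the mean of probes, arrays left out and the methods' t-test. Arrays of 16000 genes were simulated for the 2 groups, where limma found 43% of genes shifted by 1 log2 unit and 98% of those shifted by 2. Their noise was independent and normal, with a variance that was set and not taken from these arrays. No slide effect or exchange of arrays was simulated, so these shares do not hold for the measured arrays. The number of arrays limits the precision.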

Additional observations from a re-analysis of the deposited data

How the results depend on the processing

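Under the alternatives run, 0 syndecans or glypicans passed the adjustment in limma. Both filters, both blocks of the scanner output and the t-test leave a member's difference as it was by construction (the stricter filter drops Gpc5), and so say nothing of its sign. Sdc1 stayed higher with rhTM (0.032 to 0.58), while Sdc3 (-0.37 to -0.094), Gpc1 (-0.24 to -0.071), Gpc2 (-0.21 to -0.0041) and Gpc3 (-0.39 to -0.051) stayed lower. Gpc5 ran from -0.26 to -0.028 over 15 alternatives, none of them by the table, but its probe was kept only through the saline arrays, so its sign shows no stability. By the table it was not tested and measured 0.039 higher with rhTM. The 27 changes of sign were in Sdc2, Sdc4 and Gpc4, and their cause was not tested. With a slide block in the table fit these genes were -0.31, 0.26 and 0.013. Sdc4 was -0.092 by the table, -0.037 without both exchanged arrays and -0.0015 with quantile normalization. Gpc4 was -0.0072 by the table, -0.0016 without both exchanged arrays, -0.019 when only probes well above background everywhere set the 75th percentile and -0.00013 with the mean of probes.

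Leaving out each array in turn gave, by the scanner output and then by the table, -0.12 to 0.12 and -0.14 to 0.099 for Sdc2, -0.10 to 0.17 and -0.27 to 0.0021 for Sdc4, and -0.032 to 0.064 and -0.048 to 0.048 for Gpc4. Sdc1 ran from 0.032 to 0.33 and from 0.071 to 0.34, with the lowest value in each without rhTM replicate 1. By the table, the groups without rhTM replicate 1 lie on different slides, so that value cannot be told apart from a slide difference. The same holds for 0.099 of Sdc2 and -0.27 of Sdc4, which came from the same table fit.

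Over all genes, 0 of 16370 passed by the scanner output, with 306 at an unadjusted p under 0.05 and 340 by the methods' t-test, also 0 after adjustment. In the series table that count was 0 of 16320, 432 (187 higher, 245 lower) with the slide as a block, and 0 to 561 when each array was left out, the 561 (443 higher, 118 lower) being those without rhTM replicate 1. By the table, leaving out rhTM replicate 1 sets rhTM replicates 2 and 3, on slide 2, against saline arrays that all lie on slide 1. Group and slide are then the same contrast, so the 561 genes cannot be assigned to rhTM rather than to the slide. Same-numbered mice did not all vary together (correlations of -0.30, 0.44 and -0.45), so the numbers do not pair the samples. With the replicate block 0 genes and 0 members passed, and the differences were as without it, at 0.21 for Sdc1 and -0.19 for Gpc3. With 3 arrays per group, intervals of the tested members by the scanner output span changes from -34.5% to 55.3%, and Gpc5 and Gpc6 were not above background on every array.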
